A study of Danio rerio with 2 samples.

Results

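Solute carriers are membrane proteins that move amino acids, sugars, ions, metals, nucleotides and other solutes across the plasma membrane, the mitochondrial inner membrane and the membranes of other organelles. Genes were taken as members when their symbol began with slc and a digit and their level was 5 FPKM or more in at least one of the ovary libraries, where FPKM is a count of sequenced fragments divided by transcript length and by the size of the library. This gave 128 members out of 402 slc genes listed, among 22328 genes in the table. The members were thus chosen by their measured FPKM in these same libraries, so counts and ratios are given as a description, with no test.

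The study compared ovaries of adult zebrafish (*Danio rerio*, AB strain), either wild type (*sox3*+/+) or *sox3* knockout (*sox3*-/-), with no other treatment. Fish of both genotypes came from incrosses of heterozygotes. The knockout lines carried frame-shift deletions made with CRISPR/Cas9 in *sox3*, a gene of a Sox transcription factor, and the line that gave the sequenced library is not named in the sources used here. RNA of 3 fish per genotype went into 1 library, so the comparison rests on 2 libraries. The spread between fish of a genotype is not known from such pools, and differences carry no p-value.

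In the ovary, growing oocytes are surrounded by granulosa and theca cells, and follicle cells are known to pass nutrients such as amino acids to the oocyte. Carriers of the plasma membrane usually couple a solute to the gradient of sodium or protons, while carriers of the SLC25 family exchange metabolites across the mitochondrial inner membrane, and carriers of the SLC35 family bring nucleotide sugars into the Golgi and the endoplasmic reticulum. Symbols are spelled as in the table of gene names, where those in capitals are the symbols of the human match and can stand for 2 zebrafish genes. Roles given for symbols in capitals are those known for the mammalian proteins.

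For *sox3*, the targeted gene (ENSDARG00000053569), the library labelled WT gave 1.18 FPKM and the library labelled KO 2.16 FPKM, a higher level under the knockout label. Each library is called by its label in what follows, and directions hold for the labels only. Where a pair of values is given, the library labelled WT comes first. The aromatase gene *CYP19A1*, of estrogen synthesis, was at 2.04 and 1.12 FPKM under the same labels. The tissue was checked with marker lists. The 13 oocyte markers were all at 5 FPKM or more, each differed by less than 1.4-fold between the libraries, and their summed level was 10503 and 9674 FPKM. Of the 17 granulosa and theca genes 4 were at 5 FPKM or more, and the list summed to 210 and 293 FPKM. In the library labelled KO 4 genes of this list were higher and 13 lower, and most of the sum came from *CYP11A1*, *hsd3b2* and *CYP17A1*, of steroid synthesis. The 13 erythrocyte genes summed to 27.6 and 51.5 FPKM, with 8 higher and 4 lower in the library labelled KO. The widest differences in FPKM on that list were those of *hbaa1*, at 12.8 and 23.1 FPKM, and *tfr1a*, at 2.20 and 14.7 FPKM. The 13 macrophage and leukocyte genes summed to 19.4 and 23.2 FPKM and the 9 endothelial genes to 4.28 and 5.79 FPKM. For the 13 smooth muscle and fibroblast genes the sums were 38.4 and 36.7 FPKM. The 11 genes of the testis list summed to 71.8 and 46.8 FPKM, with 1 higher and 10 lower in the library labelled KO. Much of both sums came from the 1 higher gene, *PIWIL1*, at 33.5 and 34.2 FPKM. The list is not of testis alone, since *amh* is also on the granulosa and theca list. Among the lower genes *SPATA18* was at 16.9 and 2.75 FPKM and *CFAP52* at 6.22 and 2.30 FPKM. The part of these shifts in the ratios of the solute carriers was not tested, and in bulk tissue fewer cells of a type and less RNA per cell cannot be told apart.

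Most of the listed slc genes were under 5 FPKM in both libraries. Of the 402 listed genes, 128 (31.8%) reached 5 FPKM, 85 were from 1 to under 5 FPKM and 189 were under 1 FPKM in both libraries. Among all 22328 genes, 42.9% reached 5 FPKM. The members had a median level of 12.4 FPKM in the library labelled WT and 12.8 FPKM in the library labelled KO, while all 9569 genes at 5 FPKM or more had medians of 21.5 and 21.6 FPKM. Only 16 members were at 50 FPKM or more. The members summed to 3589 and 3637 FPKM, which was 0.627% and 0.657% of all FPKM in the table, and the 10 highest of them held 47.9% and 47.8% of that sum.

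The members came from 41 of the 50 SLC families that were listed, and the groups of substrates differed in how many of their genes reached the level. Among the larger groups the carriers of metal ions and heme had 18 of 31 genes (58.1%) at 5 FPKM or more, the mitochondrial carriers 30 of 56 (53.6%), and the carriers of nucleosides, nucleotide sugars and sugar phosphates 19 of 39 (48.7%). These groups hold many carriers of organelles. Carriers of amino acids and peptides had 19 of 67 (28.4%) and carriers of sodium, protons, potassium, chloride and bicarbonate 12 of 50. Low shares were found for sugars and inositol, with 4 of 31 (12.9%), and for monocarboxylates and dicarboxylates, with 3 of 25 (12.0%). The SLC13 and SLC45 families, of citrate and of sugar carriers, had none of 5 genes each at the level.

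**Figure D1:**
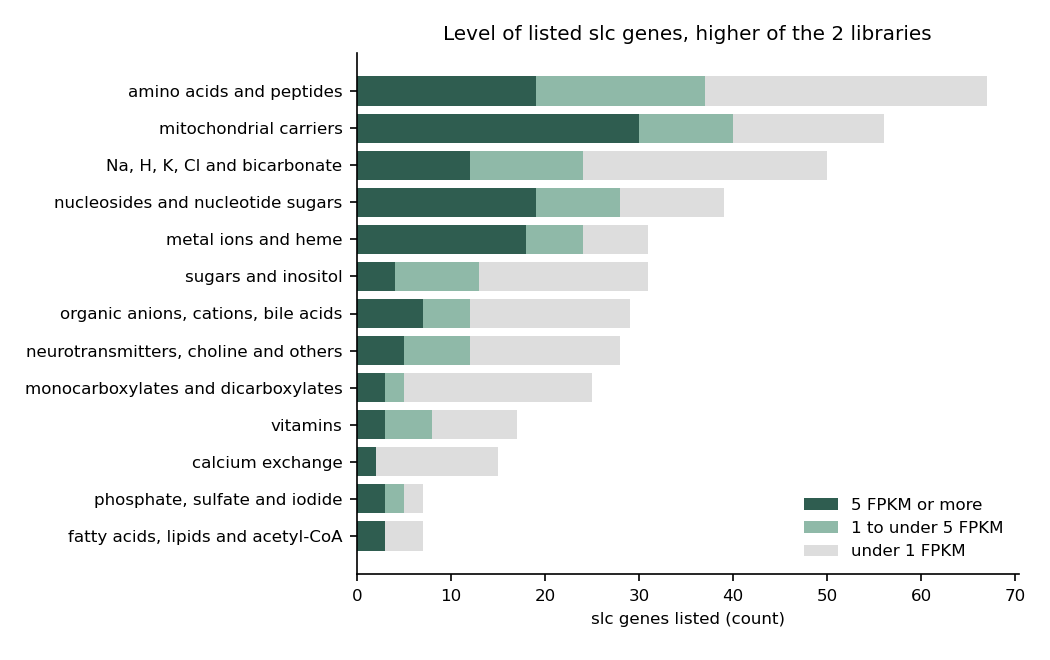
Number of listed slc genes in each substrate group (x axis, count), split by the higher of the 2 libraries into 5 FPKM or more, 1 to under 5 FPKM and under 1 FPKM. Most of the metal carriers (18 of 31) and mitochondrial carriers (30 of 56) were at 5 FPKM or more, and most carriers of monocarboxylates and dicarboxylates (20 of 25) were under 1 FPKM.

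Between the libraries, most members kept their level. Differences are log2 ratios of the library labelled KO over the library labelled WT after 0.1 FPKM was added to both values. In the library labelled KO 5 members (3.91%) were higher by 2-fold or more, beside 3.51% of all genes at the level of 5 FPKM, and 5 members (3.91%) were lower by as much, beside 4.16% of all genes. At 1.4-fold, 16 members (12.5%) were higher and 14 (10.9%) lower, beside 10.7% and 12.0% of all genes, and 98 (76.6%) lay within 1.4-fold. The shares of the members thus lay near those of all genes. The median log2 ratio of the members was 0.00, with quartiles at -0.20 and 0.20, and that of all genes at 5 FPKM or more was -0.02, with quartiles at -0.24 and 0.21. In direction, 64 members were higher, 63 lower and 1 equal.

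Apart from that of *slc22a7b.1*, the larger ratios belonged to the lower members. By the higher of their values, 42 members were from 5 to under 10 FPKM. Of these 7 (16.7%) were at least 2-fold apart, and of all genes at that level 17.7%. From 10 to under 20 FPKM these were 2 of 46 members (4.35%) and 8.85% of all genes. From 20 to under 50 FPKM they were 1 of 24 members (4.17%), *slc22a7b.1*, and 4.32% of all genes. None of the 16 members at 50 FPKM or more was 2-fold apart, where 2.90% of all genes were. The members passed the level in both libraries in 110 cases and in a single library in 18, 9 in each library. Of the 10 members that were at least 2-fold apart, 9 were under 5 FPKM in the lower library. The rule favours wide ratios in genes that reach the level through 1 library only, so these counts support nothing by themselves.

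**Figure D2:**
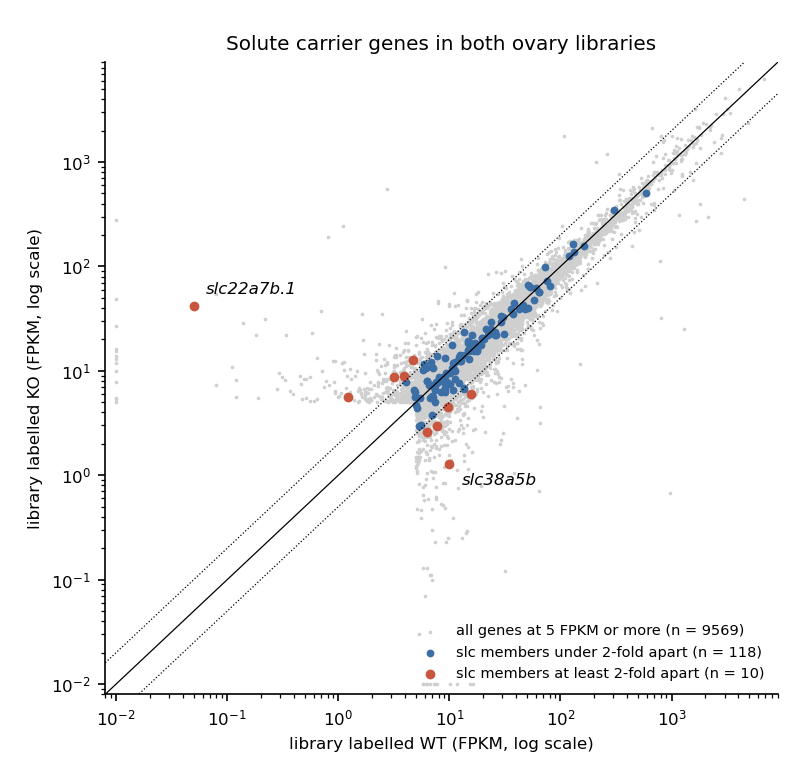
Level of each gene in the library labelled WT (x axis, FPKM, log scale) against the library labelled KO (y axis, FPKM, log scale), with grey points for the 9569 genes that reached 5 FPKM, blue points for 118 slc members and red points for the 10 that were at least 2-fold apart. The solid line marks equal levels and the dotted lines 2-fold. Most members lie close to the solid line, and *slc22a7b.1* stands far to the left, at 0.05 and 41.4 FPKM.

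Genes stood close together around the chosen level. Just above it stood *SLC38A10* at 5 and 4.68 FPKM, *SLC37A4*, the glucose 6-phosphate carrier of the endoplasmic reticulum, at 5.07 and 4.43 FPKM, and *SLC24A4*, a potassium-dependent sodium-calcium exchanger, at 5.31 and 2.94 FPKM. Just below it stood *SLC50A1* at 4.88 and 4.14 FPKM, *SLC35D1* at 4.86 and 2.50 FPKM and *SLC9A2* at 4.56 and 4.82 FPKM. Of the 85 slc genes from 1 to under 5 FPKM, 15 (17.6%) were higher and 8 (9.41%) lower by 2-fold in the library labelled KO. Of all 3886 genes in that range these were 13.3% and 17.1%. The lower levels make these ratios less certain.

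The organic anion carrier gene *slc22a7b.1* (ENSDARG00000056643) had the widest difference of all members. It was at 0.05 FPKM in the library labelled WT and at 41.4 FPKM in the library labelled KO, a log2 ratio of 8.11. Of the 9569 genes at 5 FPKM or more, 4, this gene included, had a ratio as high. The ratio depends on the constant added to so low a value, and was 9.43 with 0.01 FPKM and 5.34 with 1 FPKM. The mammalian SLC22A7 carries organic anions in liver and kidney.

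Related slc22a7 genes differed in the same direction at much lower levels. *slc22a7b.3* was listed at 0.01 FPKM, the smallest value in the table, in the library labelled WT and at 0.98 FPKM in the library labelled KO. *slc22a7a* was listed at 0.01 and 0.47 FPKM, and *slc22a7b.2* at 0.01 and 0.18 FPKM. These copies may share reads, so that part of the signal of one can come from another, and the split among them is uncertain. In the gene order of the RefSeq annotation of another assembly, GRCz12tu, *slc22a7b.3* and *slc22a7b.1* lie close together. Of the genes around them, chosen after their values were seen, *crip3* was at 0.48 and 0.94 FPKM, *ttbk1b* at 0.04 and 0.67 FPKM and *plekha1a* at 27.4 and 30.9 FPKM. The difference of *slc22a7b.1* was thus not shared by its abundant neighbour *plekha1a*.

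Markers of organs that use this carrier in mammals were summed as well. The 19 liver genes summed to 4.28 FPKM in the library labelled WT and 3.74 FPKM in the library labelled KO, 1 of them reached 1 FPKM, 5 were higher and 11 lower, and the liver fatty acid binding protein gene *fabp10a* was at 0.39 FPKM and listed at 0.01 FPKM. The 13 genes of the kidney and intestine list summed to 79.5 and 64.4 FPKM, with 2 higher and 11 lower. Most of that sum came from the member *SLC20A1* and from *TRPM7*, an ion channel, at 30.4 and 24.2 FPKM. The kidney gene *umod* was at 3.92 and 0.08 FPKM and *CDH17*, a cadherin of both epithelia, at 0.31 and 0.03 FPKM. Among the liver genes that were higher, *fga*, of fibrinogen, was at 0.15 and 0.43 FPKM and *tfa*, of transferrin, at 1.09 and 1.46 FPKM. The part of these cells in the level of *slc22a7b.1* was not tested.

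The other members of the group of organic anions and cations, bile acids and drugs differed little. Of its 7 members 5 (71.4%) lay within 1.4-fold, beside 77.4% of all genes at 5 FPKM or more, and the median log2 ratio was -0.09. *SLC17A9*, which loads nucleotides into vesicles, was at 29.4 and 33.3 FPKM, and *SLC10A7*, of the family of bile acid carriers, at 24.9 and 23.3 FPKM. *SLC22A31* was at 16.7 and 15.7 FPKM. *slc51a*, a subunit of a transporter of bile acids and steroids, was at 8.37 and 8.05 FPKM and *slc22a15* at 7.15 and 5.61 FPKM. The lowest ratio was that of *SLC10A3*, at 5.57 and 3.03 FPKM (log2 ratio -0.86).

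**Figure D3:**
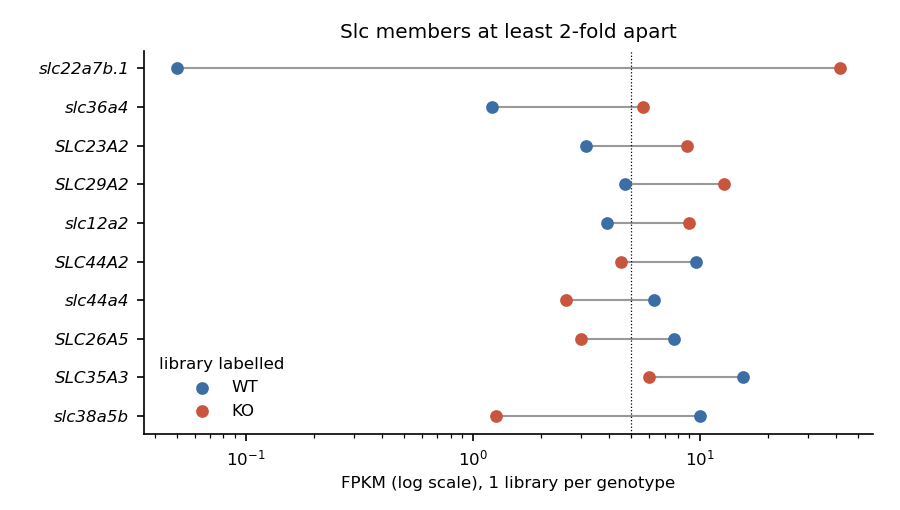
Levels of the 10 slc members that were at least 2-fold apart (x axis, FPKM, log scale), with a blue point for the library labelled WT and a red point for the library labelled KO, 1 library each, and a dotted line at 5 FPKM. Apart from *slc22a7b.1*, all of them lie under 16 FPKM in both libraries.

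Mitochondrial carriers formed the largest group and the most abundant one. The 30 members of the SLC25 family summed to 1672 and 1589 FPKM, or 46.6% and 43.7% of the FPKM of all members. None was 2-fold apart, where 7.67% of all genes at 5 FPKM or more were. At 1.4-fold 3 were higher and 1 (3.33%) was lower, beside 10.7% and 12.0% of all genes. Within 1.4-fold lay 26 (86.7%), beside 77.4% of all genes. The part of level in these counts was not tested. The median log2 ratio of the group was -0.01. *SLC25A5*, the ADP/ATP carrier that exports ATP from the mitochondrion, was the highest of all members, at 594 and 502 FPKM. The other ADP/ATP carrier genes, chosen after their values were seen, were near 0, with *SLC25A4* at 0.36 and 0.33 FPKM and *SLC25A6* listed at 0.01 and 0.08 FPKM. *SLC25A25*, a carrier of ATP-magnesium and phosphate (ENSDARG00000010572), was at 304 and 347 FPKM, and *SLC25A3*, the phosphate carrier, at 162 and 158 FPKM. The most abundant carriers therefore differed by less than 1.4-fold.

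At the upper end of the mitochondrial group, *SLC25A42*, a carrier of coenzyme A, was at 4.04 and 7.82 FPKM (log2 ratio 0.94), *SLC25A34* at 5.77 and 10.3 FPKM (0.82) and one gene under SLC25A44, a carrier of branched-chain amino acids (ENSDARG00000045927), at 10.5 and 17.5 FPKM (0.74). At the lower end stood *slc25a40*, which has a role in the import of glutathione, at 12.2 and 7.66 FPKM (-0.67), and *SLC25A26*, the carrier of S-adenosylmethionine, at 11.1 and 8.35 FPKM (-0.41). Some carriers of intermediates of the citric acid cycle and of fatty acid oxidation, chosen after their values were seen, are given as well. *slc25a1a*, the citrate carrier, was at 29.5 and 29.1 FPKM, *SLC25A11*, the oxoglutarate carrier, at 48.1 and 38.9 FPKM, *SLC25A10*, the dicarboxylate carrier, at 23.5 and 24.9 FPKM, and *SLC25A20*, which imports acylcarnitines, at 45.7 and 42.3 FPKM. Each of these 4 lay within 1.4-fold, as did 26 of the 30 members of the group. Nothing about carriers of their kind follows from so chosen a set.

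Of the 19 carriers of amino acids and peptides, 1 (5.26%) was higher and 1 (5.26%) lower by 2-fold. Beside these stand 3.51% and 4.16% of all genes at 5 FPKM or more. At 1.4-fold 2 (10.5%) were higher and 3 (15.8%) lower, beside 10.7% and 12.0% of all genes, and the median log2 ratio was -0.03. Each of the members at least 2-fold apart reached the level in 1 library only, which favours a wide ratio. *slc38a5b*, of the sodium-coupled carriers of glutamine and other neutral amino acids, was at 9.99 FPKM in the library labelled WT and 1.27 FPKM in the library labelled KO, a log2 ratio of -2.88 and the lowest of all members. In the opposite direction *slc36a4*, of the carriers that couple amino acids to protons, was at 1.22 and 5.61 FPKM (2.11). *SLC15A2*, a peptide carrier, was at 7.68 and 13.8 FPKM (0.84), and *SLC7A4*, an orphan relative of the cationic amino acid carriers, at 13.5 and 6.87 FPKM (-0.97).

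The most abundant genes of this group differed little. *SLC43A1*, a carrier of large neutral amino acids, was at 118 and 127 FPKM, and *SLC38A6* at 31.2 and 22.7 FPKM. The highest value belonged to *SLC7A6OS*, at 131 and 164 FPKM, which the rule took by its name. This gene is named for its place on the strand opposite to SLC7A6 and encodes no carrier. In the SLC38 family 6 of 7 members were lower and 1 was higher, a median log2 ratio of -0.10 and a range from -2.88 to 0.22. Carriers of lysosomal amino acids, chosen after their values were seen, include *SLC38A9*, an arginine sensor, at 10.2 and 7.46 FPKM, *SLC38A7*, which exports glutamine, at 20.7 and 20.3 FPKM and *SLC66A1*, which exports cationic amino acids, at 9.15 and 7.57 FPKM. *SLC3A2*, the heavy chain that brings light chains of the SLC7 family to the plasma membrane, was at 7.38 and 5.01 FPKM (log2 ratio -0.55), while its copy *slc3a2a*, under the level, was at 3.74 and 4.19 FPKM. The light chain *SLC7A6* was at 15.7 and 16.01 FPKM. Copies of the heavy chain therefore had opposite directions, both within 1.5-fold.

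**Figure D4:**
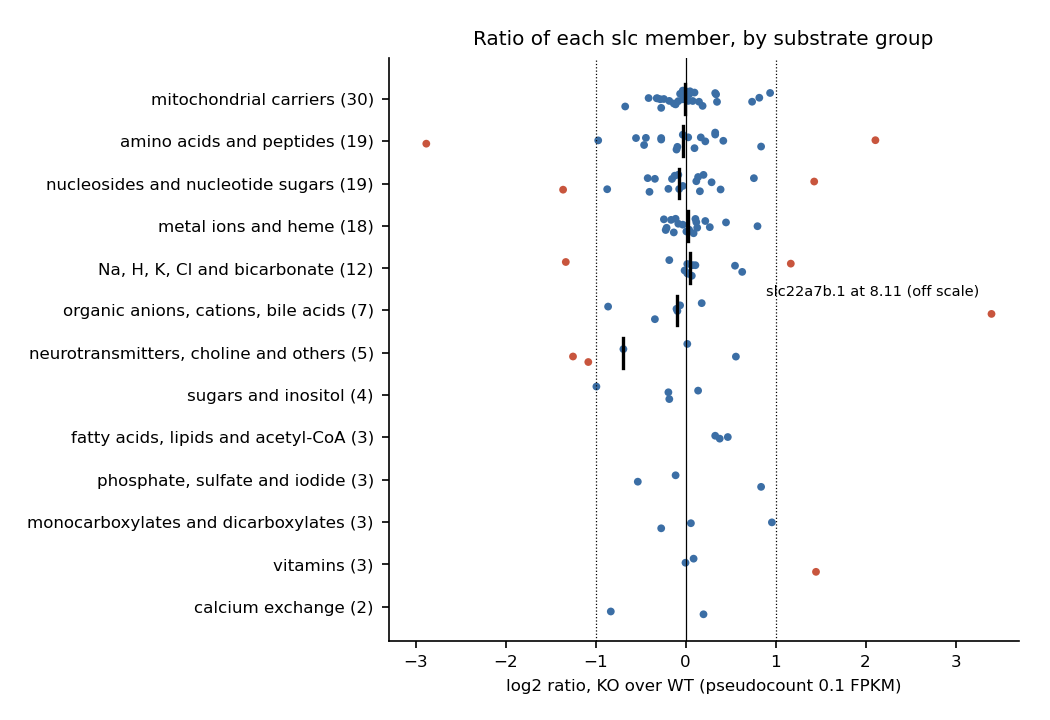
Log2 ratio of each of the 128 slc members, library labelled KO over library labelled WT (x axis), by substrate group with the number of members in brackets. Red points are at least 2-fold apart, black bars are medians of groups with 5 or more members, and *slc22a7b.1*, at 8.11, is drawn at the edge. The medians lie near 0 except that of the group with the choline carriers, at -0.69.

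All 3 members of the SLC44 family, whose first members carry choline for the synthesis of phospholipids, were lower in the library labelled KO. *slc44a1a* was at 10.7 and 6.59 FPKM (log2 ratio -0.69), *SLC44A2* (ENSDARG00000103399) at 9.62 and 4.50 FPKM (-1.08) and *slc44a4* at 6.28 and 2.58 FPKM (-1.25). The 3 genes differed by more than most members, and all of them are of low level. Under the level, 2 further copies, chosen after their values were seen, went both ways. The gene under SLC44A1 was at 2.72 and 4.24 FPKM and a second gene under SLC44A2 at 2.75 and 1.61 FPKM. Their group also holds *SLC18B1*, a vesicular carrier of polyamines, at 7.14 and 10.6 FPKM (0.56), and *slc6a22.1*, at 7.93 and 8.02 FPKM (0.02). Its median of -0.69 over 5 members was the farthest from 0 among the groups with at least 5 members, and depends on the level that members had to reach. The 3 of its members that reached 5 FPKM in both libraries had a median of 0.02 and the 12 genes of the group at 1 FPKM or more one of -0.07.

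Of the 18 carriers of metal ions and heme 17 (94.4%) lay within 1.4-fold, beside 77.4% of all genes at 5 FPKM or more. None was 2-fold apart, and the median log2 ratio was 0.02. All 18 were at 5 FPKM or more in both libraries, and 16 reached 10 FPKM. At such levels 2-fold ratios were rarer among all genes too, and the part of level in these counts was not tested. Zinc is abundant in oocytes, and zinc carriers of the SLC39 family bring it into the cytosol, while those of the SLC30 family move it out. The 6 members of SLC39 summed to 212 and 261 FPKM, with 4 higher and 2 lower and a median log2 ratio of 0.24, and the 5 members of SLC30 summed to 147 and 140 FPKM, with 3 higher and 2 lower and a median of 0.04. *slc39a6*, known in mouse oocytes for zinc uptake during maturation, was at 72.3 and 98.9 FPKM (0.45). *SLC39A7*, which releases zinc from the endoplasmic reticulum, was at 52.7 and 63.5 FPKM and *SLC30A7*, which fills the Golgi, at 64.1 and 57.2 FPKM.

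Among the metal carriers *SLC39A11* had the widest difference, with 13.4 and 23.5 FPKM (log2 ratio 0.80). The lowest ratios were those of *SLC39A9*, at 26.1 and 22.2 FPKM (-0.24), and *slc41a3*, of the magnesium carriers, at 14.97 and 12.9 FPKM (-0.22). Some carriers of iron, copper and heme, chosen after their values were seen, are given as well. The iron importer *slc11a2* was at 19.3 and 17.6 FPKM, the copper importer *SLC31A1* at 12.7 and 12.4 FPKM and the heme carrier *SLC48A1* at 37.5 and 34.7 FPKM. The iron exporter *SLC40A1* did not reach the level and was farther apart, at 0.37 and 2.69 FPKM (2.57). Of the genes of iron uptake and storage in the related lists, the transferrin receptor gene *tfr1a* was at 2.20 and 14.7 FPKM (2.68), its relative *tfr1b* at 32.2 and 44.9 FPKM (0.48) and the ferritin gene *fth1a*, chosen after its values were seen, at 621 and 558 FPKM. *tfr1a* is also on the list of erythrocyte markers, where *hbaa1*, of the adult globins, was at 12.8 and 23.1 FPKM, *hemgn* at 5.36 and 4.72 FPKM and *alas2* at 0.48 and 0.58 FPKM. The genes of the red cell anion exchanger, under SLC4A1, were at 0.60 and 0.49 FPKM and at 0.42 and 0.58 FPKM, both far under the level.

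Carriers of nucleosides, nucleotide sugars and sugar phosphates had 1 of 19 members (5.26%) higher and 1 (5.26%) lower by 2-fold. Among all genes at 5 FPKM or more these shares were 3.51% and 4.16%. The median log2 ratio of the group was -0.07. *SLC29A2*, an equilibrative nucleoside carrier, was at 4.70 and 12.8 FPKM (1.43), while its relative *SLC29A1* had 8.38 and 6.31 FPKM (-0.40) and was chosen after its values were seen. One gene under SLC35A3, the Golgi carrier of UDP-N-acetylglucosamine (ENSDARG00000013222), was at 15.6 and 6 FPKM (-1.36). The other gene of that symbol (ENSDARG00000020981) was at 12.7 and 13.8 FPKM (0.12). *slc35a4* had a higher ratio, with 6.21 and 10.6 FPKM (0.76), and *SLC35B4*, of nucleotide sugar carriers, a lower one, with 7 and 3.79 FPKM (-0.87).

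The highest levels of that group were held by genes that differed by less than 1.4-fold. *SLC35B1*, which exchanges ATP and ADP across the membrane of the endoplasmic reticulum, was at 50.8 and 66.7 FPKM, *SLC35F2* at 63.9 and 57.4 FPKM, and *SLC37A2*, of the sugar phosphate exchangers, at 50.8 and 40.2 FPKM. In the SLC35 family as a whole 7 of 14 members were higher and 7 lower, and their sums were 277 and 285 FPKM.

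Among carriers of sodium, protons, potassium, chloride and bicarbonate, 1 of 12 members (8.33%) was higher and 1 (8.33%) lower by 2-fold. Among all genes at 5 FPKM or more these shares were 3.51% and 4.16%. The median log2 ratio of the group was 0.05. *slc12a2*, which brings sodium, potassium and chloride into cells, was at 3.92 and 8.96 FPKM (1.17). *SLC26A5*, the gene of prestin, a motor protein of hair cells in mammals, was at 7.67 and 2.99 FPKM (-1.33). All 4 members of the SLC9 family of sodium-proton exchangers were higher in the library labelled KO, none of them by 2-fold. The most abundant members were nearly equal, with *slc4a7*, a sodium bicarbonate cotransporter, at 22.1 and 22.1 FPKM, *SLC4A2*, an anion exchanger, at 19.8 and 20.8 FPKM and *SLC9A7* at 19.5 and 20.7 FPKM. *SLC12A9* was at 17.6 and 15.5 FPKM (-0.18).

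Carriers of sugars, lactate and vitamins were few. *slc2a15b*, a glucose carrier relative found in fish, was at 35.6 and 39.4 FPKM, *SLC2A8*, an intracellular hexose carrier, at 11.3 and 9.97 FPKM and *slc2a3b* at 7.49 and 6.57 FPKM. *SLC2A10* was at 13.4 and 6.72 FPKM, a log2 ratio of -0.99, which the 0.1 FPKM added to both values put just short of 2-fold. The genes under SLC2A1, the main glucose carrier of many tissues, were chosen after their values were seen and stayed at 0.21 FPKM or less in both libraries. *SLC16A3*, which exports lactate, was the fifth most abundant member by the higher of its values, at 131 and 137 FPKM. The 2 genes under SLC16A1, a carrier of lactate and pyruvate, went in opposite directions, with 5.96 and 11.7 FPKM (ENSDARG00000068572, log2 ratio 0.96) and 6.93 and 5.71 FPKM (ENSDARG00000016963, -0.27). Basigin, the chaperone that takes these carriers to the membrane, had its gene *BSG*, chosen after its values were seen, at 197 and 186 FPKM.

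Of the vitamin carriers, *SLC23A2*, which takes up ascorbate, was at 3.15 and 8.79 FPKM (log2 ratio 1.45). *SLC46A1*, a folate carrier, was at 13.5 and 14.3 FPKM, and *SLC5A6*, a carrier of biotin and pantothenate, at 9.28 and 9.29 FPKM. The ascorbate carrier was thus the only one of the 3 that was 2-fold apart.

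The smallest groups hold carriers of lipids, phosphate and calcium. *SLC33A1*, which takes acetyl-CoA into the endoplasmic reticulum, was at 16.1 and 22.2 FPKM, and the fatty acid carriers *SLC27A1* and *SLC27A6* were at 14.7 and 19.2 FPKM and at 14.7 and 18.5 FPKM. These 3 genes were all higher, with log2 ratios from 0.33 to 0.47, and all within 1.4-fold. *SLC20A1*, a sodium-phosphate cotransporter of the plasma membrane, was at 41.99 and 38.8 FPKM, its relative *SLC20A2* at 6.81 and 12.3 FPKM (0.84) and *slc34a2b* at 9.12 and 6.27 FPKM (-0.53). For calcium there were 2 members, *SLC8A1*, a sodium-calcium exchanger, at 4.88 and 5.61 FPKM and *SLC24A4*, named above.

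Zebrafish often keep more than 1 copy of a gene, and the copies could be compared. Of the members, 12 stood under 6 base names with 2 members each, and 33 members had a copy below the level. A copy below the level is lower than its member by the rule itself. Among the 6 pairs, those under SLC25A25 and slc25a51 lay farthest apart in level, and the other pairs were closer. One gene under SLC25A25 was at 304 and 347 FPKM and the other (ENSDARG00000035468) at 9.30 and 9.57 FPKM, and *slc25a51b*, of a carrier of NAD, was at 57.5 and 47.8 FPKM and *slc25a51a* at 9.17 and 8.99 FPKM. None of the 6 pairs had copies that were 1.4-fold apart in opposite directions. The nearest to it were the genes under SLC16A1 and those under SLC35A3 described above, where 1 copy differed by 1.4-fold or more and the other lay within it. The genes under SLC25A44 were at 17.4 and 18.01 FPKM and at 10.5 and 17.5 FPKM. Reads shared by copies leave the values of such genes less certain.

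**Figure D5:**
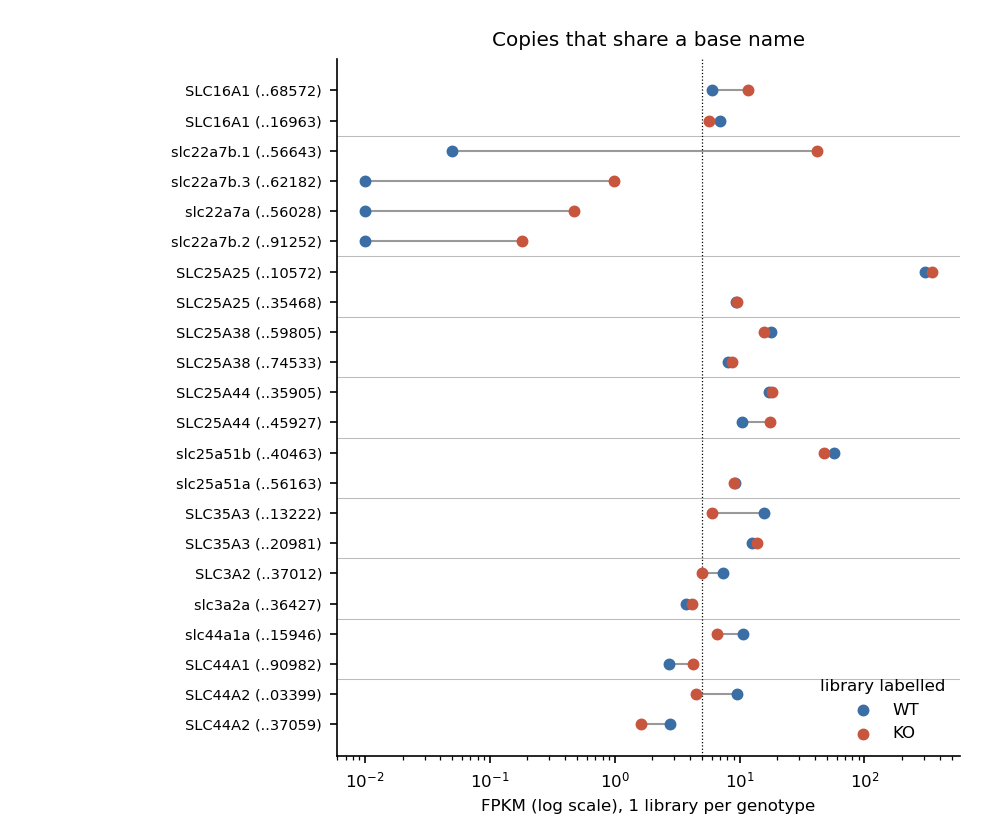
Levels (x axis, FPKM, log scale) of genes that share a base name, with a blue point for the library labelled WT and a red point for the library labelled KO, 1 library each, the last digits of the gene ID in brackets and a dotted line at 5 FPKM. The 4 slc22a7 genes all lie higher in the library labelled KO, and 1 gene each under SLC35A3 and SLC16A1 differs more than its copy.

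Genes related to solute carriers by function or by name were taken from 5 lists. Of the 6 genes of transporter chaperones and of iron or zinc storage at the level, 1, *tfr1a*, was 2-fold higher and 5 lay within 1.4-fold. The sodium-potassium ATPase, which sets up the sodium gradient, had 2 genes at 5 FPKM or more, both within 1.4-fold, among them *atp1b3b* at 131 and 113 FPKM. Of 18 genes of the vacuolar proton ATPase, which acidifies organelles, 17 lay within 1.4-fold and 1 was lower, *atp6v1e1b* at 24.3 and 14.1 FPKM. The next farthest were *ATP6V0B* at 18.7 and 25.7 FPKM and a gene under ATP6V1A (ENSDARG00000034534) at 22.1 and 17.9 FPKM. All 16 genes at the level in the list of ABC genes lay within 1.4-fold, from *ABCA3* at 17.2 and 23.6 FPKM to *abcg2c* at 8.65 and 7.34 FPKM. That list goes by name and includes *ABCE1*, *ABCF1*, *ABCF2* and *ABCF3*, so not every gene on it need be a transporter. Of 17 aquaporin names on the list 10 were matched, to 11 genes, and none of these genes reached 5 FPKM. For the names without a match no level is known.

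Solute carriers that have other names were counted as well. Of 19 such genes at 5 FPKM or more, 3 were higher and 1 lower by 1.4-fold, and none was 2-fold apart. *NIPAL3* and *NIPA1*, of a family of magnesium carriers, were at 5.28 and 9.04 FPKM and at 5.50 and 9.10 FPKM, and one gene under MFSD2A, a carrier of lysophospholipids (ENSDARG00000030630), was at 47.7 and 68.5 FPKM. These lists have too few genes to be set against the 7.67% of all genes that were 2-fold apart.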

How the data were processed

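Ovary RNA of 3 adult fish per genotype was pooled into 1 library per genotype. The authors made libraries from poly(A) RNA for a BGISEQ-500, aligned the reads using HISAT and Bowtie2 and used RSEM to obtain FPKM. GRCz10 is the build in the submitters' processing notes. Versions of tools were not given in the sources used here. In the deposited table each gene has 1 FPKM value per library, with 2 decimals and a smallest value of 0.01. FPKM is scaled for transcript length and library size. Counts of reads per gene were not used here, so counting error is unknown, and no interval is given. Of 3000 genes from 0.05 to 0.4 FPKM in both libraries, in 471 the log2 ratio lay within 0.05 of 0, and 65 and 84 lay in the next 0.1 below and above, as whole reads in libraries of like depth give, although rounding adds ties.

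Symbols were found for 20336 of 22328 gene IDs. Members were slc genes that reached 5 FPKM in either library, grouped by family number. Log2 ratios used a pseudocount of 0.1 FPKM, which makes ratios of low genes smaller, and genes were counted at 2-fold and 1.4-fold, with no p-value. Other lists were matched by name, then by the name in capitals, then by that name less its last letter a or b. The members, groups and lists were chosen with earlier results of these data known. Named genes were *sox3*, *slc22a7b.1*, members at least 2-fold apart, in each group the 3 highest members and the 2 with the largest ratio in each direction, the 3 genes on each side of the level, copies going opposite ways by 1.4-fold, and up to 3 genes of each related list with the largest ratios. Of the marker lists, summed levels are given, with the genes that bear on a result. Members given outside this rule, and slc genes under the level other than the 3 next to it, were chosen after their values were seen. Other settings tried were a pseudocount of 0.01 or 1 FPKM, a trimmed mean or median ratio for scaling, other levels, folds of 1.4 and 3, and means. A few genes that this rule covers are not reported here. The counting was tested on simulated data. Python 3.11.15, numpy 2.4.6, pandas 2.3.3 and matplotlib 3.10.9 were used.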

Additional observations from a re-analysis of the deposited data

How the results depend on the processing

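With 1 library per genotype no replicate could be left out, and reads per gene are unknown, so low members are the least certain. No paired analysis was possible because each genotype has 1 library. Names from the RefSeq table were not run, since it holds no IDs of this table. Both pseudocounts and both scalings left the counts of members at least 2-fold higher and lower within 1.5 times the main 5 and 5. The scalings removed library-wide shifts of -0.015 and -0.012 and gave 67 higher and 61 lower members in place of 64 and 63. Only *SLC44A2* crossed 2-fold, at -0.95 with a pseudocount of 1 FPKM. The median of all members stayed within 0.1 of 0.00 in every setting run, the mean of 0.06 included.

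Counts moved with the level and the fold, as fewer or more genes entered. They were 0 higher and 1 lower of 110 at 5 FPKM in both libraries (all genes 1.34% and 1.54%), 20 and 13 of 213 at 1 FPKM (6.34% and 7.89%), 2 and 1 of 86 at 10 FPKM (2.56% and 2.66%) and 42 and 37 of 402 with no filter (8.33% and 11.8%). At 1.4-fold they were 16 and 14, and at 3-fold 2 and 1 (1.80% and 1.91%). Among the 83 members whose name belongs to 1 listed gene, a setting added after seeing the data, 4 were higher and 2 lower by 2-fold. The median of the group with neurotransmitters and choline, -0.69, was 0.02 at 5 FPKM in both libraries, -0.07 at 1 FPKM, -0.06 at 10 FPKM, 0.00 with no filter, 0.02 over names of 1 gene and -0.49 as a mean. That of organic anions was 0.05 at 10 FPKM and 0.98 as a mean, which *slc22a7b.1* sets. That of nucleosides and nucleotide sugars was 0.12 at 10 FPKM and 0.05 over names of 1 gene, and that of mitochondrial carriers was -0.11 over names of 1 gene. The cause of these shifts was not tested beyond the change of genes. Leaving out *SLC7A6OS*, also added later, moved none of these values past its limit.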
